A study of Mus musculus with 2 samples.

Results

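A group of 10 genes was followed in hematopoietic stem cells (HSCs), the rare marrow cells that sustain blood formation. It comprises 3 *Zfp36* family genes, whose proteins mark messenger RNAs (mRNAs) for decay, and 7 genes of NF-κB and its feedback inhibitors. They were chosen by name, and all 10 were found among 24421 gene symbols. The comparison was between 1 wild-type (WT) library and 1 Ezh2 KO-labelled library, made from C57BL/6 marrow that carried 1 copy of a tamoxifen-inducible Cre (CreERT+/-) with *Ezh2* +/+ or *Ezh2* Δ/Δ alleles. Marrow of both groups was grafted into lethally irradiated CD45.1 recipients, tamoxifen was injected on 5 consecutive days (100 µl of 10 mg/ml), and CD150+CD48-CD34-Flt3- cells of the Lin-Sca-1+c-Kit+ fraction were sorted 1 month later. Tamoxifen and CreERT were thus shared by the WT cells. The labels give no age, no promoter for the Cre and no number of donors or recipients, so whether a library pools animals is not known.

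NF-κB is a family of dimeric transcription factors that IκB proteins hold inactive. Signals from cytokine and microbial sensors destroy the IκB proteins, and the freed dimers then switch on their own inhibitors, among them IκBα and A20, which closes a feedback loop. The *Zfp36* proteins work later, at the mRNA: they bind AU-rich elements in 3′ untranslated regions (UTRs) and recruit the CCR4-NOT deadenylase, which shortens the life of cytokine and early response transcripts. HSCs carry receptors for such signals and respond to them.

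Of the 10 genes, *Zfp36* alone differed by at least 1.5-fold between the libraries, at 11755 normalised counts in WT against 6498 in the Ezh2 KO-labelled library. That is 1 lower and 0 higher of 10, where 5.87% of the 9670 genes compared were lower and 4.58% higher. The other 9 lay between a log2 ratio of -0.23 and 0.19. With 1 library in each group there is no replicate check on any difference, and p-values were not computed. A normalised count is the raw count divided by a size factor that sets the 2 libraries to a common scale, and each log2 ratio is the Ezh2 KO-labelled library over WT with 1 added to each normalised count. Intervals are exact 95% intervals for counting error only, with each read taken as a separate draw. Amplified reads that carry no molecular identifier do not each stand for a separate molecule. The intervals can thus be too narrow even for that error. In sorted bulk cells, fewer cells that carry a transcript and less of it per cell cannot be told apart.

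The AU-rich sites in the 3′ UTRs of these genes are shown first because *Zfp36* proteins bind such elements. The motif searched was UAUUUAU, written TATTTAT in DNA letters, on the transcript strand of 1 annotated 3′ UTR per gene, with overlapping copies counted. *Zfp36*, *Zfp36l1* and *Zfp36l2* each held 3 copies, *Nfkbia* and *Tnfaip3* held 2 each, and *Nfkbiz*, *Bcl3*, *Nfkb1*, *Nfkb2* and *Rela* held 0. Among the 9468 genes compared that had a 3′ UTR, 3.15% held 3 or more copies and 24.1% held 1 to 2. The sites of *Zfp36* and of its paralogue *Zfp36l2*, the abundant pair, and of *Nfkbia* are given with the motif in capitals, 5′ to 3′ on the transcript (GENCODE M21, GRCm38, all on the minus strand).
Zfp36 site 1, chr7:28376977-28376983: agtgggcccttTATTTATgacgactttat
Zfp36 site 2, chr7:28376962-28376968: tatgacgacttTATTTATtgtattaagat
Zfp36 site 3, chr7:28376937-28376943: agattttatagTATTTATatatattgggt
Zfp36l2 site 1, chr17:84184925-84184931: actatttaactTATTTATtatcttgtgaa
Zfp36l2 site 2, chr17:84184877-84184883: tgtccatactgTATTTATcgagtatgatg
Zfp36l2 site 3, chr17:84184691-84184697: attgtatgtaaTATTTATttcattaattt
Nfkbia site 1, chr12:55489619-55489625: ggaccacgtttTATTTATtgtgcttttga
Nfkbia site 2, chr12:55489430-55489436: tctaagatgtaTATTTATtaaacagattt
The coordinates are those of the capitals. In *Zfp36* the 3 copies lay close together, starting at bases 575, 590 and 615 of a 3′ UTR of 774 bases. Those of *Zfp36l2* were spread from base 822 to base 1056 of 1822. A match describes the letters present and does not show binding, and a lack of matches does not exclude it. *Nfkbiz*, with 0 copies, is among the classical *Zfp36* target mRNAs listed below.

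Promoters were examined for κB sites, the elements that NF-κB binds. Sequences from 250 bases before to 50 bases after the start were found in RefSeq (GRCm38.p6) for 7 of the 10 genes; *Zfp36l2*, *Nfkbiz* and *Nfkb1* had no entry. The κB consensus of 10 letters was matched on both strands, with overlapping matches counted. It was present in a promoter of *Nfkbia*, *Tnfaip3*, *Bcl3* and *Nfkb2*, thus in 4 of 7, against 9.55% of all 27025 genes with a promoter sequence. A second motif, GGGANTTCC with or without 1 more T, can match where the consensus does not. It picked out the same 4 genes, against 2.38% of all. Among the 7499 genes compared that had a promoter sequence, 931 held the consensus and 253 the second motif. A gene with several promoters, such as *Nfkb2* or *Tnfaip3*, had more sequence searched. A window of each gene is given on the gene's own strand, with the match in capitals.
Nfkbia, chr12:55492655-55492688, minus strand: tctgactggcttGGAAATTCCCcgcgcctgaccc
Tnfaip3, chr10:19015401-19015434, minus strand: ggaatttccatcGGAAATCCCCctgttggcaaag
Bcl3, chr7:19822732-19822765, minus strand: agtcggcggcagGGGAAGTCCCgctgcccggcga
Nfkb2, chr19:46304686-46304719, plus strand: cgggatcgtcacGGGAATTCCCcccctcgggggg
*Zfp36*, *Zfp36l1* and *Rela* held no match, which says only that these letters were not in this window.

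The libraries were of moderate depth. Gene counts came to 5763118 in WT and 4157280 in the Ezh2 KO-labelled library, so that 3 counts, the smallest level taken as measurable, corresponded to 0.521 and 0.722 counts in each 1000000 gene counts (CPM). *Ezh2*, the targeted gene, had 166 and 129 counts, or 142.5 and 150.3 normalised counts (log2 ratio 0.08, -0.27 to 0.42). Its count was thus not lower. A count over the whole gene does not resolve deleted exons, and the label is used here only as a name. All 13 HSC marker genes were detected, among them *Procr* (1127.6 normalised counts in WT and 1199.1) and *Kit* (5202 and 5120). Of the 13, *Fgd5*, *Slamf1* (CD150) and *Ctnnal1* were lower, with log2 ratios of -0.59, -0.62 and -0.70. *Cd48*, which the sort excluded, had 12 and 11 counts. *Flt3*, also excluded, was higher with 98 and 140 counts, a log2 ratio of 0.95. *Cd34*, the last of the excluded markers, had 957 and 829 counts, a log2 ratio of 0.23 (0.10 to 0.37). Of 9670 genes with a mean of at least 10 CPM, 568 (5.87%) were lower and 443 (4.58%) higher by at least 1.5-fold in the Ezh2 KO-labelled library.

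Levels are compared between genes as CPM per kilobase of the merged exons. *Zfp36*, which encodes tristetraprolin, the founder of the family, had 685.0 CPM per kilobase in WT and was 36th among all genes with a length. *Zfp36l2*, the family member known to be needed for blood stem cells, followed with 453.2 and was 59th. *Nfkbia*, which encodes IκBα, had 106.1 (95% interval 99.5 to 112.9) and *Rela*, which encodes the p65 subunit, had 92.2 (87.8 to 96.8), intervals that did not overlap with this length. *Bcl3*, an atypical IκB that can activate transcription, had 20.4 and *Nfkb1*, the gene of p105 and p50, 14.5. The lowest levels in WT were those of *Nfkbiz* (7.61), *Nfkb2* (7.38), *Tnfaip3* (6.27) and *Zfp36l1* (5.05), in which the intervals of neighbours overlapped.

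In the Ezh2 KO-labelled library *Zfp36l2* had 400.7 CPM per kilobase of merged exons (390.6 to 411.1) and *Zfp36* had 386.5 (376.5 to 396.8), and the 2 intervals overlapped. *Nfkbia* (105.9) and *Rela* (100.7) came next and their intervals overlapped as well. *Zfp36l1* was lowest in both libraries, at 5.87 in the Ezh2 KO-labelled library.

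The order of several neighbours depended on the length used. Per kilobase of 1 coding transcript in place of merged exons, *Zfp36* was first in both libraries, at 851.9 CPM per kilobase in WT and 480.7 (468.2 to 493.5) in the Ezh2 KO-labelled library, against 453.2 and 400.7 (390.6 to 411.1) for *Zfp36l2*. With that length the intervals of *Nfkbia* (108.2, 101.5 to 115.2) and *Rela* (104.3, 99.3 to 109.4) overlapped in WT. *Nfkb1* then had 42.4 CPM per kilobase in WT, above *Bcl3* at 27.3, and *Zfp36l1* (4.04 to 6.23) lay below *Tnfaip3* (9.04 to 11.6) with no overlap.

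**Figure D1:**
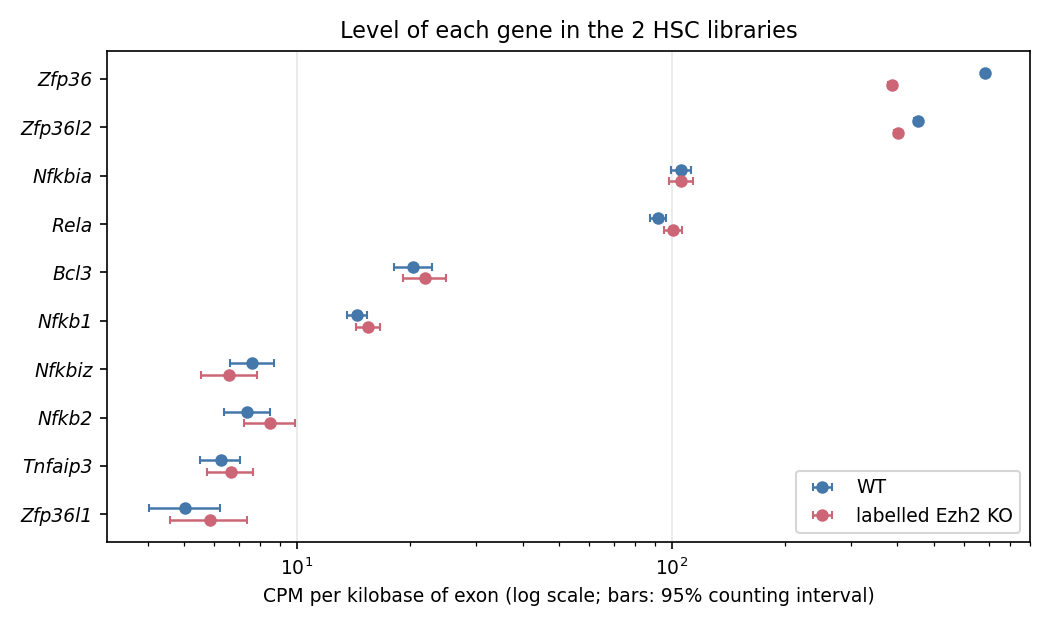
Level of each gene in the WT library (blue) and the Ezh2 KO-labelled library (red), as CPM per kilobase of exon on a log axis; bars are 95% counting intervals and there is 1 library per group. *Zfp36* was at 685.0 and 386.5, while the points of the 7 NF-κB genes lay close together in each pair.

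*Zfp36* (ENSMUSG00000044786.6; chr7:28376784-28380253, minus strand) had 13698 raw counts in WT and 5576 in the Ezh2 KO-labelled library, or 2377 and 1341 CPM. The log2 ratio was -0.86 (95% interval -0.90 to -0.81), a level 1.81-fold lower. It was 194th from the lowest among the 9670 genes compared. Among the 967 genes with the highest expression, 1 of 10 bins of equal size, 18 (1.86%) were lower by at least 1.5-fold. *Zfp36* was -4.29 robust SDs from the median of that bin, a robust SD being the scaled median absolute deviation. If libraries are taken to vary with a coefficient of variation (CV) of 0.2 on top of counting error, its interval widened to -1.66 to -0.05. An antisense gene without an entry of its own in the files overlaps *Zfp36* exons, and whether reads were counted by strand is not stated.

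*Zfp36l2* (ENSMUSG00000045817.8; chr17:84183931-84187947, minus strand) had 9220 and 5881 raw counts, or 7912 and 6853 normalised counts in WT and the Ezh2 KO-labelled library. The log2 ratio of -0.21 (-0.25 to -0.16) was beyond counting error but only 1.15-fold lower, and it was -0.95 robust SDs from the median of the same bin. With the assumed CV the interval was -1.01 to 0.59. *Zfp36l1* (ENSMUSG00000021127.7; chr12:80107754-80113013, minus strand), whose protein promotes decay of the same class of mRNAs, had 87 and 73 raw counts. Its log2 ratio of 0.19 (-0.28 to 0.65) was not distinguishable from 0 at this depth. These 2 genes also overlap an opposite-strand noncoding gene each.

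The balance within the family could be read without any scaling, from counts of the same library. There were 1.49 *Zfp36* reads for each *Zfp36l2* read in WT and 0.948 in the Ezh2 KO-labelled library, a change by a factor of 0.638 (95% exact conditional interval 0.610 to 0.668). *Zfp36* made up 59.5% of the family's counts in WT (95% exact binomial interval 58.9% to 60.2%) and 48.4% (47.4% to 49.3%) in the other library. *Zfp36l2* accounted for 40.1% and 51.0%, and *Zfp36l1* for 0.378% and 0.633%. Summed over the family, the level was 3992 CPM in WT and 2773 CPM in the Ezh2 KO-labelled library.

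**Figure D2:**
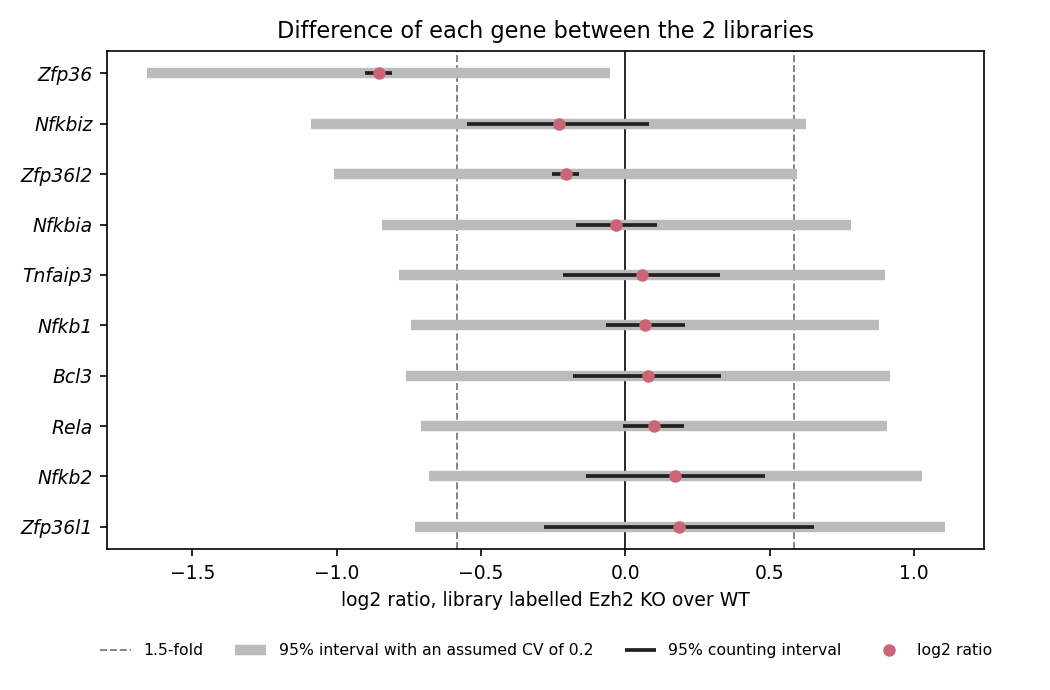
Log2 ratio of each gene, Ezh2 KO-labelled library over WT (red points), with its 95% counting interval (black) and the wider 95% interval that assumes a CV of 0.2 between libraries (grey); dashed lines mark 1.5-fold. *Zfp36* at -0.86 is the only point past a dashed line and the only one whose grey bar does not reach 0.

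The 3 subunit genes *Rela*, *Nfkb1* and *Nfkb2* did not differ beyond counting error. *Rela* (ENSMUSG00000024927.8; chr19:5637483-5648130, plus strand), the main activating subunit, had 1400.5 and 1498.6 normalised counts, a log2 ratio of 0.10 (-0.01 to 0.20). *Nfkb1* (ENSMUSG00000028163.17; chr3:135584655-135691547, minus strand), whose p105 product is both a precursor of p50 and an inhibitor, had 863.3 and 905.4 normalised counts. Its log2 ratio was 0.07 (-0.07 to 0.21). *Nfkb2* (ENSMUSG00000025225.15; chr19:46304320-46312385, plus strand), the p100 and p52 gene of the noncanonical arm, had 167.3 and 188.8 normalised counts and a log2 ratio of 0.17 (-0.14 to 0.48). All 3 points lay above 0 and each interval included 0. Exons of *Nfkb2* overlap those of *Psd* and of a noncoding gene on the other strand, so without strand their reads cannot be told apart.

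The feedback inhibitor genes *Nfkbia* and *Tnfaip3* did not differ beyond counting error either. *Nfkbia* (ENSMUSG00000021025.8; chr12:55489410-55492647, minus strand), the classical NF-κB target that returns the dimers to the cytoplasm, had 984 and 709 raw counts, or 844.4 and 826.2 normalised counts. Its log2 ratio was -0.03, and both bounds of the counting interval (-0.17 to 0.11) lie inside 1.5-fold. With the assumed CV the interval was -0.84 to 0.78, past 1.5-fold on both sides. *Tnfaip3* (ENSMUSG00000019850.11; chr10:19000910-19015657, minus strand), the A20 ubiquitin-editing enzyme that turns off signals from cytokine receptors, had 224.0 and 233.1 normalised counts and a log2 ratio of 0.06 (-0.22 to 0.33).

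The nuclear IκB proteins act on NF-κB that is already on DNA. *Nfkbiz* (ENSMUSG00000035356.17; chr16:55811375-55838899, minus strand), which encodes IκBζ, had 220 and 138 raw counts, or 188.8 and 160.8 normalised counts. At -0.23 (-0.55 to 0.08) its log2 ratio was the lowest of the 7 NF-κB genes, and its interval included 0. *Bcl3* (ENSMUSG00000053175.17; chr7:19808462-19822770, minus strand) had 249.7 and 263.4 normalised counts, a log2 ratio of 0.08 (-0.18 to 0.33). A pair of antisense genes lies within or across *Bcl3*, 1 of them over its exons.

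Measured against *Rela* in the same library, with no scaling, the NF-κB genes gave factors whose intervals all included 1. There were 0.603 *Nfkbia* reads per *Rela* read in WT and 0.551 in the Ezh2 KO-labelled library, a factor of 0.914 (0.809 to 1.03). The factor was 0.972 (0.793 to 1.19) for *Tnfaip3*, 0.986 for *Bcl3*, 0.980 (0.869 to 1.11) for *Nfkb1* and 1.05 (0.840 to 1.32) for *Nfkb2*. For *Nfkbiz* it was 0.796 (0.631 to 1.00), the upper bound lying just above 1. By contrast the factor of *Zfp36* against *Rela* was 0.517 (0.477 to 0.560) and that of *Zfp36l2* was 0.809 (0.747 to 0.878).

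All 10 genes passed the minimum of 10 CPM. Of these, 1 was lower and 0 were higher by at least 1.5-fold, where the shares of all genes compared were 5.87% and 4.58%, so the count of genes past the threshold was near the background. The median log2 ratio was 0.06 over the 10 genes and 0.07 over the 7 NF-κB genes, beside -0.01 over all genes compared. The 4 genes with a κB match in a promoter had log2 ratios from -0.03 to 0.17. Over all 931 genes compared with such a match the median was -0.02, as it was over the 6568 without one.

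**Figure D3:**
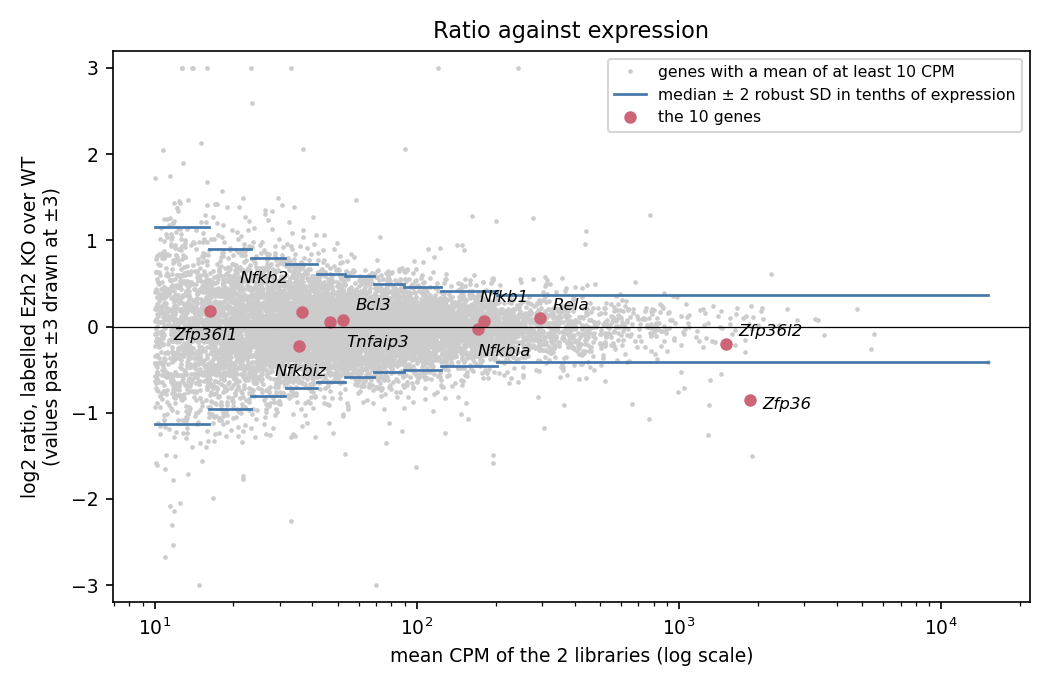
Log2 ratio against the mean CPM of both libraries (log axis) for the 9670 genes compared (grey) and the 10 genes (red); blue lines mark the median ± 2 robust SDs in 10 bins of expression, and values past ±3 are drawn at ±3. *Zfp36* lies below the lower blue line at the high end of expression and the other 9 lie between the lines.

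The genes around NF-κB were then counted by role. Over all genes compared, 5.87% were lower and 4.58% higher, and in the lowest of the 10 bins of expression 16.1% and 14.5%. Of 5 other NF-κB and IκB genes with at least 10 CPM, 0 passed 1.5-fold. *Nfkbie*, which encodes IκBε, had 286.6 and 395.0 normalised counts and *Relb*, the partner of p52, 118.4 and 163.1, both with a log2 ratio of 0.46. Their intervals, 0.24 to 0.69 and 0.11 to 0.81, lay above 0, so both were higher beyond counting error. With the assumed CV their intervals, -0.37 to 1.29 and -0.41 to 1.33, included 0. *Nfkbid* was lower beyond counting error, with 115.0 and 81.6 normalised counts and a log2 ratio of -0.49 (-0.93 to -0.07). Its interval with the assumed CV was -1.40 to 0.41. *Nfkbib* and *Nfkbil1* had log2 ratios of -0.19 and -0.01, with intervals that included 0. *Rel*, the c-Rel gene, was below the minimum with 38 and 16 counts. In the IKK complex and its adaptors, 2 of 23 genes were lower and 0 higher. Those were *Birc3* (log2 ratio -0.64), a ubiquitin ligase of the TNF receptor complex that NF-κB also induces, and *Tab3* (-0.63), an adaptor of the TAK1 kinase. The kinase genes *Ikbkb* (491.7 and 487.1 normalised counts) and *Chuk* (140.7 and 166.6) had log2 ratios of -0.01 and 0.24.

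Beside shares of 5.87% lower and 4.58% higher over all genes compared, 2 of 17 other negative regulators were lower and 0 higher. Both were cytokine-signal suppressors of the SOCS family, *Socs3* with 310.6 and 142.2 normalised counts (log2 ratio -1.12, -1.44 to -0.83) and *Socs1* with 191.4 and 109.5 (-0.80, -1.17 to -0.45). With the assumed CV the interval of *Socs3* stayed below 0 (-1.98 to -0.27) and that of *Socs1* did not (-1.68 to 0.07). The A20 partners did not pass the threshold and went both ways. *Tax1bp1* (0.08) and *Tnip1* (0.34, 0.13 to 0.56) lay above 0. *Tnip2* (-0.40, -0.74 to -0.07), *Tnip3* (-0.21, -0.37 to -0.06), *Rnf11* (-0.17) and *Itch* (-0.003) lay below. Of 8 receptor genes, *Il1rap*, the shared chain of interleukin-1 family receptors, was lower with 166.5 and 93.2 normalised counts (-0.83, -1.23 to -0.45). Its interval with the assumed CV, -1.72 to 0.05, included 0. The TNF receptor genes *Tnfrsf1a* and *Tnfrsf1b* had log2 ratios of 0.12 and -0.14. Most ligands were scarce, and 2 of 10 passed the minimum. *Ltb* was abundant, with 1281.2 and 1689.7 normalised counts. Its log2 ratio of 0.40 (0.29 to 0.50) was beyond counting error but short of 1.5-fold. *Il18* was higher by at least 1.5-fold (107.3 and 192.3 normalised counts). *Tnf* had 28 and 10 raw counts, and *Lta* and *Cd40lg* had 0 in both libraries, which allows up to 0.521 and 0.722 CPM.

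Of 16 other NF-κB targets, 2 were higher and 1 lower, with a median log2 ratio of 0.09. Over all genes compared, 4.58% were higher and 5.87% lower. *Ccl4*, a chemokine, had 159.6 and 269.2 normalised counts (log2 ratio 0.75, 0.47 to 1.04) and *Mmp9*, a granule protease also listed as a neutrophil marker, 82.4 and 130.5 (0.66, 0.26 to 1.07). The lower gene was *Birc3*. The most abundant targets were *Irf1* (0.04), *Tnfaip8* (-0.05) and *Ier3* (-0.24), none of which passed 1.5-fold. Targets below the minimum went both ways. *Cxcl10* had 16 and 55 raw counts, *Vcam1* 25 and 40 and *Ccl5* 11 and 21, with counting intervals above 0. *Ptgs2*, with 50 and 2, and *Cd83*, with 16 and 3, had intervals below 0.

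For the decay machinery that *Zfp36* proteins recruit, a chosen list of genes was measured. All 23 genes of the CCR4-NOT, decapping and exonuclease list passed the minimum, with 1 higher, 0 lower and a median log2 ratio of 0.05. Over all genes compared, 4.58% were higher and 5.87% lower. *Cnot1*, the scaffold that *Zfp36* proteins bind, had 787.8 and 715.5 normalised counts, and the higher gene was the 5′ exonuclease gene *Xrn1* with 67.8 and 118.9 (log2 ratio 0.80, 0.37 to 1.25). None of 12 genes for other AU-rich element binding proteins and RNases passed 1.5-fold, and their log2 ratios ran from -0.35 to 0.45. *Elavl1*, which encodes the stabilising protein HuR, had 1222 and 976.5 normalised counts, a log2 ratio of -0.32 (-0.45 to -0.20). In the p38-MK2 arm, which phosphorylates tristetraprolin, 1 of 8 genes was lower, the p38 phosphatase gene *Dusp1* with 6391 and 3889 normalised counts (-0.72). *Dusp1* is also among the immediate-early genes counted below. With the assumed CV the intervals of *Xrn1* (-0.10 to 1.72) and *Dusp1* (-1.52 to 0.09) included 0. *Mapkapk2*, the MK2 gene, had a log2 ratio of -0.24.

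Classical target mRNAs of *Zfp36* were mostly too scarce to compare, and 10 of 23 passed the minimum. Of those, beside shares of 5.87% lower and 4.58% higher over all genes compared, 2 were lower and 1 higher. Their median log2 ratio was -0.24. The lower genes were *Fos* (13853 and 4892 normalised counts) and *Plk2*, a stress-induced kinase gene with 883.0 and 375.2, and the higher gene was *Ccl4*. *Ptgs2*, below the minimum, had 50 and 2 raw counts, and *Csf2*, *Il3* and *Il6* had 0 in both. *Nfkbiz* is itself in this list, and *Fos*, *Myc* and *Ier3* are also among the immediate-early genes counted below. Across the genes compared, those with 3 or more UAUUUAU copies in the 3′ UTR had a median log2 ratio of -0.01 (298 genes), those with 1 to 2 copies -0.02 (2281 genes) and those with 0 copies -0.02 (6889 genes). Shares lower by at least 1.5-fold were 7.05%, 7.67% and 5.17% in that order, and shares higher were 5.70%, 4.73% and 4.25%. The 3′ UTRs were longer in genes with more copies (medians 3287, 1855 and 724 bases).

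**Figure D4:**
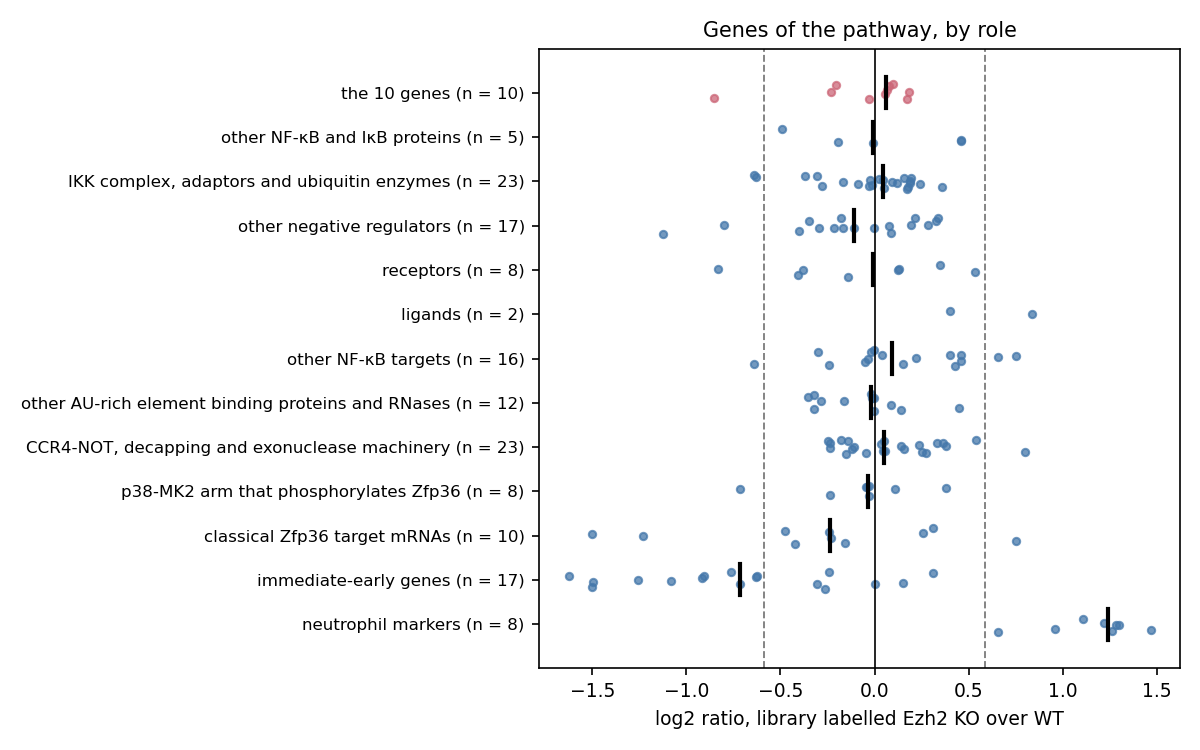
Log2 ratios, Ezh2 KO-labelled library over WT, of the genes with at least 10 CPM in each list; each point is a gene, black bars are medians (drawn for lists of 3 or more) and dashed lines mark 1.5-fold. The medians of the NF-κB and decay lists lie near 0, that of immediate-early genes at -0.72 and that of neutrophil markers at 1.24.

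The values of other gene sets that differed in the same comparison stand here beside *Zfp36*. The shares over all genes compared were 5.87% lower and 4.58% higher. Of 17 immediate-early genes, which cells switch on within minutes of a stimulus and among which *Zfp36* is often counted, 11 were lower and 0 higher, with a median log2 ratio of -0.72. *Egr1*, a transcription factor gene, had 8943 and 3744 normalised counts (log2 ratio -1.26), *Junb*, an AP-1 subunit gene, 8355 and 4449 (-0.91) and *Nr4a1*, an orphan nuclear receptor gene, 1416.8 and 502.2 (-1.49). *Myc*, in the same list, had a log2 ratio of 0.31. The summed level of all 22 genes of that list was 13111 CPM in WT and 7539 CPM in the Ezh2 KO-labelled library. Of 10 neutrophil markers 8 passed the minimum and all 8 were higher, with 1434 and 3332 CPM in sum. *Ngp*, a granule protein gene, had 2187 and 5385 normalised counts, while *Retnlg* had 1 and 20 counts and *Mmp8* 6 and 5. Neutrophils express *Zfp36* and *Nfkbia*, so these genes are not particular to HSCs. The eosinophil granule genes *Prg2*, *Epx* and *Prg3* had 0 counts in WT and 2030, 1000 and 116 in the Ezh2 KO-labelled library, and *Ear1*, below the minimum, had 0 and 49. The eosinophil surface marker genes *Siglecf* and *Ccr3* had 5 and 4 counts each, with log2 ratios of 0.10 (-2.21 to 2.34). Monocyte markers summed to 37.5 and 33.7 CPM, with *Cx3cr1* at 0 in both libraries. They went both ways. *Csf1r*, below the minimum, had 24 and 5 counts, a log2 ratio of -1.66 (-3.57 to -0.40). *Cd68* had 89 and 48 counts (-0.44, -0.99 to 0.07) and *Ly6c2* 101 and 86 (0.21, -0.22 to 0.64). B cell markers summed to 4.51 and 24.1 CPM. T cell markers had 0 counts in WT, and of them *Cd3g* had 9 in the other library. The part of the immediate-early program or of other cell types in the difference of *Zfp36* was not tested.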

How the data were processed

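Libraries were 1 WT and 1 labelled Ezh2 KO, grouped by GEO title. The authors deposited raw counts per gene symbol, not normalised. The submitters' processing notes name TopHat2 (2.0.13), Bowtie2 (2.1.0), StringTie, edgeR and bedtools with mm10, without roles, and the counting program, strand setting and annotation are not given in the sources used here. The last 5 lines of a file hold reads assigned to no gene and were left out, so 43.9% of entries in WT and 43.1% in the other library counted toward genes.

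Counts were divided by DESeq2 (1.42.0) median-of-ratios size factors (1.17 for WT, 0.858) in R 4.3.3; TMM factors came from edgeR (4.0.16). Python 3.11.15, numpy 2.4.6, pandas 2.3.3, scipy 1.17.1 and matplotlib 3.10.9 did the rest. With 1 library per group neither package can estimate a spread, so no model was fitted. Genes with a mean of at least 10 CPM were compared and called past 1.5-fold on log2(normalised count + 1). Intervals are exact (Clopper-Pearson) at 95%. Robust SDs were taken in 10 bins of expression. Positions, exon lengths and 3′ UTRs came from GENCODE M21 (24029 of 24421 symbols matched, 645 by an older name); 1 UTR per gene was that of the transcript with the longest coding sequence. The calculation was tested on simulated data.

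The genes named outside the 10 were *Ezh2*, list genes past 1.5-fold (at most 6 per list), the 3 most abundant of each list and the cell type markers; some of these are given by count alone. *Rel*, *Relb*, *Ikbkb*, *Chuk*, *Tnip1*, *Tnf*, *Lta*, *Cd40lg*, *Ptgs2*, *Csf2*, *Il3*, *Il6*, *Elavl1*, *Mapkapk2* and *Psd* fall outside that rule and were picked with their values in view. The same holds for *Nfkbid*, *Tnip2*, *Rnf11*, *Itch*, *Cxcl10*, *Vcam1*, *Ccl5* and *Cd83*. All genes and lists were chosen with earlier results of these data known. *Cnot9* is counted under its older symbol *Rqcd1*.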

Additional observations from a re-analysis of the deposited data

How the results depend on the processing

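The log2 ratios of the 10 genes were recomputed under TMM or total-count scaling, thinning of the WT library and pseudocounts of 0.5 and 5. All 50 ratios so obtained kept the sign of the main one and moved by at most 0.15, and *Zfp36* ranged from -0.86 to -0.83. *Zfp36* was also past the threshold with an assumed CV of 0.2 and past 3 robust SDs, but with a threshold of 2-fold 0 of the 10 were lower. Counts over all genes were less stable. Against 443 higher and 568 lower, there were 1321 and 1261 with a minimum of 1 CPM, 2225 and 2253 without a filter, 96 and 115 at 2-fold, 128 and 175 with the assumed CV, and 54 and 77 past 3 robust SDs; other settings stayed within 1.5 times. Of 48 list medians recomputed, 42 moved by under 0.1 and 4 took the other sign, those of receptors, other NF-κB and IκB genes and AU-rich element binding proteins under total-count scaling, and that of ligands (2 genes at 10 CPM) with a minimum of 1 CPM. The median of genes with 3 or more UAUUUAU copies was 0.01 with the longest 3′ UTR of each gene and, in 3′ UTRs of 1000 to 3000 bases (chosen after seeing the data, as was the transcript length for levels), -0.08. No paired analysis was possible because the labels pair no samples, and leaving out a library would leave a group empty. Depth limits *Zfp36l1* most, at 87 and 73 counts, where the counting interval reaches from -0.28 to 0.65. The CV was assumed, since no replicate measures it.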
